A study of Mus musculus with 6 samples.

Results

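The methionine cycle and the methyl transfer reactions that it feeds were followed through 10 enzyme genes in primary mouse hepatocytes. The genes were *Mat1a*, *Mat2a*, *Gnmt*, *Pemt*, *Nnmt*, *Ahcy*, *Bhmt*, *Bhmt2*, *Cbs* and *Cth*, selected by name from the 57180 genes of the expression table. Each of the 10 was found once in the table, and all 10 were among the 14151 genes with enough reads to be tested. RNA was sequenced from hepatocytes of male STING Loxp mice and of male STING LKO mice, with 3 libraries in each group. The STING LKO genotype combines floxed STING alleles with a Cre transgene under the albumin promoter, which is active in hepatocytes. Cells of both groups were cultured in medium with 0.1 µM dexamethasone, a synthetic glucocorticoid, and 10% serum, and both received 0.1 mM palmitic acid (PA), a saturated fatty acid, over 24 h. Each library analysed here was from PA-treated cells, so each difference is one between genotypes under PA. The mice of the study were of C57BL/6 background and 8 to 10 weeks old. Whether the controls carried Cre is not given in the sources used here. These sources do not say whether each library came from a separate mouse, so the p-values measure the spread between libraries, which may be technical.

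In the methionine cycle, methionine adenosyltransferases join methionine to ATP and form S-adenosylmethionine, the methyl donor of most methylation reactions in the cell. Methyltransferases pass the methyl group to glycine, phospholipids, nicotinamide, DNA and other acceptors and leave S-adenosylhomocysteine, which is split into adenosine and homocysteine. Homocysteine is either methylated back to methionine, with betaine or folate as the methyl source, or moved by transsulfuration into cysteine. The liver holds most of this capacity in the body and expresses several of the enzymes at far higher levels than other organs do.

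Counted reads per library ran from 14726983 to 15888385 in STING Loxp and from 15516180 to 18536985 in STING LKO. *Sting1*, the targeted gene, had 19, 16 and 23 reads in the STING Loxp libraries and 24, 23 and 15 in the STING LKO libraries. Its log2 fold change came to -0.08 with a standard error of 0.298 (edgeR's quasi-likelihood test, adjusted p = 0.883), so the counts did not separate the genotypes at this gene. Which exons are deleted is not given in the sources used here, and reads on remaining exons would still be counted. The study also measured *sting* mRNA by RT-PCR and reported it as present in control hepatocytes and lost in those of the knockout. That measurement is not analysed here. In the sequencing data the genotypes rest on the labels, and each direction given here holds for libraries that carry the STING LKO label. Among 20 hepatocyte markers, *Alb*, which encodes serum albumin, had a mean FPKM (fragments per kilobase of gene, scaled to the counted reads of the library) of 7670 in STING Loxp and 6541 in STING LKO. *Cyp7a1*, which encodes the rate-limiting enzyme of bile acid synthesis, had 0 reads in every STING Loxp library and was too low to be tested.

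Of the 10 genes, 6 were lower in STING LKO hepatocytes, 1 was higher and 3 did not pass the test. The lower genes were *Mat1a* and *Mat2a*, which encode the catalytic subunits for S-adenosylmethionine synthesis, the methyltransferase genes *Gnmt* and *Pemt*, *Ahcy* and *Bhmt2*. *Cth*, which encodes the last enzyme of transsulfuration, was the higher one, and *Bhmt*, *Cbs* and *Nnmt* were those not past the threshold. *Pemt* and *Cth* passed narrowly and did not pass under 12 and 7 of 15 alternative settings, and without any one of the 6 libraries 5 genes were called lower. Genes were called at an adjusted p under 0.05 in edgeR's quasi-likelihood test, with adjustment over all genes tested. Over all 14151 genes tested, 11.6% were called lower and 11.5% higher by this rule, so the set held a larger share of lower genes than the table did. The 10 genes were chosen with earlier results of these data known, so this comparison only describes the set. The median log2 fold change was -0.32 over the 10 genes and 0.00 over all genes tested. The changes were small next to the study's own criteria for differentially expressed genes, which also ask for a log2 fold change beyond 1 in either direction and for one group with a mean FPKM over 1. By these criteria 0 of the 10 were called in either direction, against 1.49% of all genes tested called lower and 0.558% called higher. Each STING LKO library lay below every STING Loxp library for 7 of the 10 genes, the 6 called lower and *Nnmt*, and above every STING Loxp library for *Cth* alone. Over all genes tested, 20.3% lay below and 20.4% above in this way. In bulk libraries, a smaller share of hepatocytes among the cells and less of a transcript in each hepatocyte cannot be told apart.

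**Figure D1:**
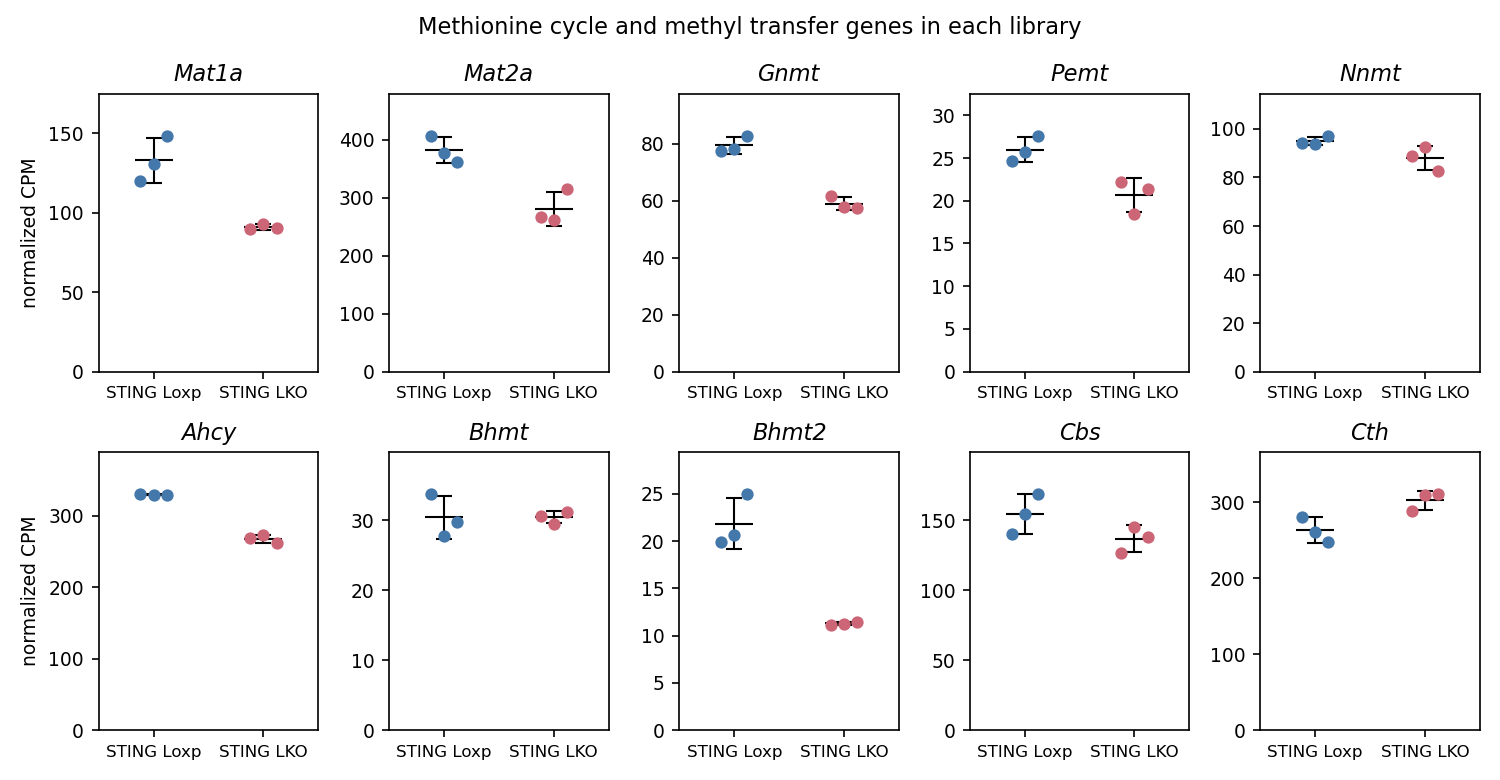
Normalized CPM (vertical axes from 0) of the 10 genes in each library, with STING Loxp in blue and STING LKO in red (n = 3 libraries per group), and the group mean and SD as black bars. *Mat1a*, *Mat2a*, *Gnmt*, *Pemt*, *Ahcy* and *Bhmt2* lie lower in every STING LKO library than in every STING Loxp library, *Cth* lies higher, and the groups overlap for *Bhmt* and *Cbs*.

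*Mat1a* (ENSMUSG00000037798, chromosome 14, 40826992 to 40846369 in the table's GRCm39 coordinates) encodes the liver-type methionine adenosyltransferase. In CPM (counts relative to the TMM-normalized library size) it had 119.8, 131 and 148 in the STING Loxp libraries and 89.8, 93.2 and 90.4 in the STING LKO libraries. The groups did not overlap, and the STING LKO libraries lay within a far narrower band than the STING Loxp libraries. The means were 133 ± 14.4 and 91.2 ± 1.83 CPM (SD, n = 3 per group), a log2 difference of -0.54 with a standard error of 0.0823 (edgeR's quasi-likelihood test, adjusted p = 0.00248). *Mat2a* (ENSMUSG00000053907, chromosome 6, 72409782 to 72416541) encodes the isozyme that most tissues use in place of the liver form. It had 407, 378 and 362 CPM in STING Loxp against 266, 261 and 314 in STING LKO. Again the groups did not overlap, with the third STING LKO library closest to the STING Loxp values. The means of *Mat2a* were 382 ± 22.6 and 281 ± 29.3 CPM, a log2 difference of -0.45 with a standard error of 0.0808 (edgeR's quasi-likelihood test, adjusted p = 0.00582).

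Because both isozyme genes fell, their balance was compared within each library, where library scaling cancels. The ratio of *Mat1a* to *Mat2a* FPKM was 0.661, 0.775 and 0.919 in the STING Loxp libraries and 0.756, 0.800 and 0.645 in the STING LKO libraries. The groups overlapped between 0.661 and 0.800, and *Mat2a* was the more abundant of the pair per length in each of the 6 libraries. The log2 ratio differed between the groups by -0.09 (exact two-sided permutation test, p = 0.6, and 0.1 is the lowest that 3 libraries per group can give). This difference ranged from -0.21 when STING Loxp replicate 1 was left out to 0.03 when replicate 3 was, so its direction rested on single libraries. A shift between the liver-type and the widely expressed isozyme was thus not detected, and the STING Loxp libraries alone spread over an SD of 0.238 on this log2 scale.

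Of the 3 methyltransferase genes in STING Loxp, *Gnmt* (ENSMUSG00000002769, chromosome 17, 47036590 to 47040094) was the most abundant per length. By mean CPM in STING Loxp *Nnmt* was above it (95.1 against 79.5). *Gnmt* encodes glycine N-methyltransferase, an abundant liver enzyme that uses up surplus S-adenosylmethionine by making sarcosine. Its CPM was 77.4, 78.3 and 82.8 in STING Loxp against 61.7, 57.7 and 57.5 in STING LKO. Both groups were tight and far apart, with means of 79.5 ± 2.89 and 59.0 ± 2.37 CPM (SD, n = 3 per group). *Gnmt* had a log2 fold change of -0.43 with a standard error of 0.0658 (edgeR's quasi-likelihood test, adjusted p = 0.00260).

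*Pemt* (ENSMUSG00000000301, chromosome 11, 59861440 to 59937315) encodes the enzyme that makes phosphatidylcholine from phosphatidylethanolamine by adding methyl groups. It had 24.7, 25.7 and 27.6 CPM in STING Loxp against 22.2, 18.4 and 21.3 in STING LKO, so the groups came close without overlapping. The log2 fold change came to -0.33 with a standard error of 0.0979 (edgeR's quasi-likelihood test, adjusted p = 0.0412). Its call was the least stable of the lower genes, since 12 of 15 alternatives placed the adjusted p above 0.05, among them the fit without any one of the 6 libraries, with adjusted p from 0.0502 to 0.138. *Nnmt* (ENSMUSG00000032271, chromosome 9, 48503177 to 48516453) encodes the enzyme that methylates nicotinamide. Its CPM was 94.3, 94.0 and 97.1 in STING Loxp against 89.0, 92.5 and 82.6 in STING LKO. All STING LKO values were below the STING Loxp values, yet only by a narrow margin, and the log2 fold change of -0.11 (standard error 0.0649) did not pass the test (adjusted p = 0.258 in edgeR's quasi-likelihood test).

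*Ahcy* (ENSMUSG00000027597, chromosome 2, 154901230 to 154916417) encodes the hydrolase that removes S-adenosylhomocysteine, a product that inhibits methyltransferases. Per length it was the most abundant of the 10 genes in STING Loxp, with a mean FPKM of 103 ± 1.41. By mean CPM in STING Loxp it lay below *Mat2a* (330 against 382). Its CPM was 330.1, 329.9 and 329 in STING Loxp against 268, 273 and 262 in STING LKO. The STING Loxp libraries were almost identical, and each STING LKO library was well below them. The log2 fold change came to -0.30 with a standard error of 0.0460 (edgeR's quasi-likelihood test, adjusted p = 0.00266). Much of the *Ahcy* sequence occurs in other places of the genome, and of its 2769 different 100-base transcript windows 63.6% also occur in the transcripts of *Gm4737* and *Gm9826*. The processed pseudogene *Gm9826* (chromosome 1, 7247963 to 7249261) had 14240 reads over the 6 libraries against 28707 for *Ahcy*, so reads may be divided between these copies and the level of *Ahcy* is uncertain. *Gm9826* fell by 0.24 as a log2 fold change (adjusted p = 0.0134 in edgeR's quasi-likelihood test). With the reads of both added, the means were 489.9 ± 4.08 CPM in STING Loxp and 403 ± 6.92 in STING LKO, a log2 ratio of -0.28. The decrease was therefore of nearly the same size with or without the copy.

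The neighbouring genes *Bhmt* and *Bhmt2* on chromosome 13 contrasted within the set. *Bhmt* (ENSMUSG00000074768, 93753183 to 93774469) encodes betaine-homocysteine methyltransferase, which regenerates methionine with betaine as the methyl donor. *Bhmt2* (ENSMUSG00000042118, 93792228 to 93810810) encodes a related enzyme that uses S-methylmethionine as its methyl donor. The sequence before the start of each gene is shown because these paralogs lie side by side and only *Bhmt2* of the pair was called. In GRCm39 coordinates *Dmgdh* (93810941 to 93889341) begins close beyond the end of *Bhmt2*, so the *Bhmt2* stretch may reach into *Dmgdh*. *Dmgdh* was also called lower (log2 fold change -0.39, adjusted p = 0.00183 in edgeR's quasi-likelihood test). Whether the starts used here match the gene ends in GRCm39 was not tested. RefSeq's promoter table (GRCm38.p6) held 7 of the 10 genes, and its 250 bases before the start are printed 5′ to 3′ on the gene's strand, which is the minus strand for both. Searched on both strands were AGGTCA (the half-site of many nuclear receptors), GGGCGG (the GC box of Sp1-type factors), TATAAA (the TATA box) and CCAAT (the CCAAT box), whose matches did not overlap in these stretches. Capitals mark AGGTCA in *Bhmt* and GGGCGG in *Bhmt2*.
Bhmt, chr13:93637759-93638008: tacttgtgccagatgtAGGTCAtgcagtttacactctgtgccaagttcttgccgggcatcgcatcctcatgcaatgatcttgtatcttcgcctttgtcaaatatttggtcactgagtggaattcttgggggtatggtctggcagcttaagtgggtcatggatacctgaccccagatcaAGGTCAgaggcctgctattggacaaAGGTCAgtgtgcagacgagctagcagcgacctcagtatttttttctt
Bhmt2, chr13:93674303-93674552: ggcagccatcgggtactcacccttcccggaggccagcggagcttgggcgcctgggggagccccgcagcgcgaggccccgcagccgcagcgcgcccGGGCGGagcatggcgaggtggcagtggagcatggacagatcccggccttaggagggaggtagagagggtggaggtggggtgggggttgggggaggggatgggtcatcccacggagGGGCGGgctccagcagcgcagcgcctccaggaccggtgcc
The *Bhmt* stretch held AGGTCA 3 times and GGGCGG 0 times. The *Bhmt2* stretch held GGGCGG 2 times and AGGTCA 0 times. CCAAT, read on the other strand, occurred 1 time in the *Bhmt* stretch and 0 times in that of *Bhmt2*, and TATAAA in neither. Of 32851 promoter stretches of this length, 14.0% held AGGTCA, 32.7% GGGCGG, 33.8% CCAAT and 12.4% TATAAA. G and C made up 48.0% of the *Bhmt* and 74.0% of the *Bhmt2* bases, with 5 and 20 CpG dinucleotides, beside medians of 52.4% and 6 over all stretches. These matches describe the letters in this window and do not show that any factor binds there.

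*Bhmt2* had 19.9, 20.7 and 25.0 CPM in STING Loxp against 11.2, 11.3 and 11.5 in STING LKO. The STING LKO libraries were nearly equal to each other and lay far under the lowest STING Loxp library. The means were 21.9 ± 2.70 and 11.3 ± 0.169 CPM (SD, n = 3 per group), a log2 difference of -0.95 with a standard error of 0.111 (edgeR's quasi-likelihood test, adjusted p = 7.48e-04). This was the widest change of the 10 genes and came close to the study's fold change criterion, which it passed without STING Loxp replicate 1 (-1.02). *Bhmt* had 33.7, 27.7 and 29.8 CPM in STING Loxp against 30.7, 29.5 and 31.3 in STING LKO, with overlapping groups. Its log2 fold change came to 0.00 with a standard error of 0.0888 (edgeR's quasi-likelihood test, adjusted p = 0.989), and it lay between -0.06 and 0.08 over the alternatives. The ratio of *Bhmt* to *Bhmt2* FPKM was 0.672, 0.532 and 0.476 in STING Loxp against 1.09, 1.04 and 1.08 in STING LKO. *Bhmt2* was thus the more abundant of the pair per length in every STING Loxp library, and *Bhmt* in every STING LKO library. This change of order rests on the fixed gene lengths behind the FPKM values. In CPM, which uses no gene length, *Bhmt* was the higher of the pair in every library of both groups. The log2 ratio differed between the groups by 0.95 (p = 0.1 by exact two-sided permutation, the lowest value that 3 libraries against 3 allow), and by 0.84 to 1.09 with 1 library left out. The transcripts of the pair shared no 100-base window with each other. *Bhmt* shared 17.3% of its windows with *Bhmt-ps1* and *Gm5096*, and *Bhmt-ps1* had 272 reads in all against 2947 for *Bhmt*. With *Bhmt-ps1* added, the log2 ratio of the group means was -0.01.

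**Figure D2:**
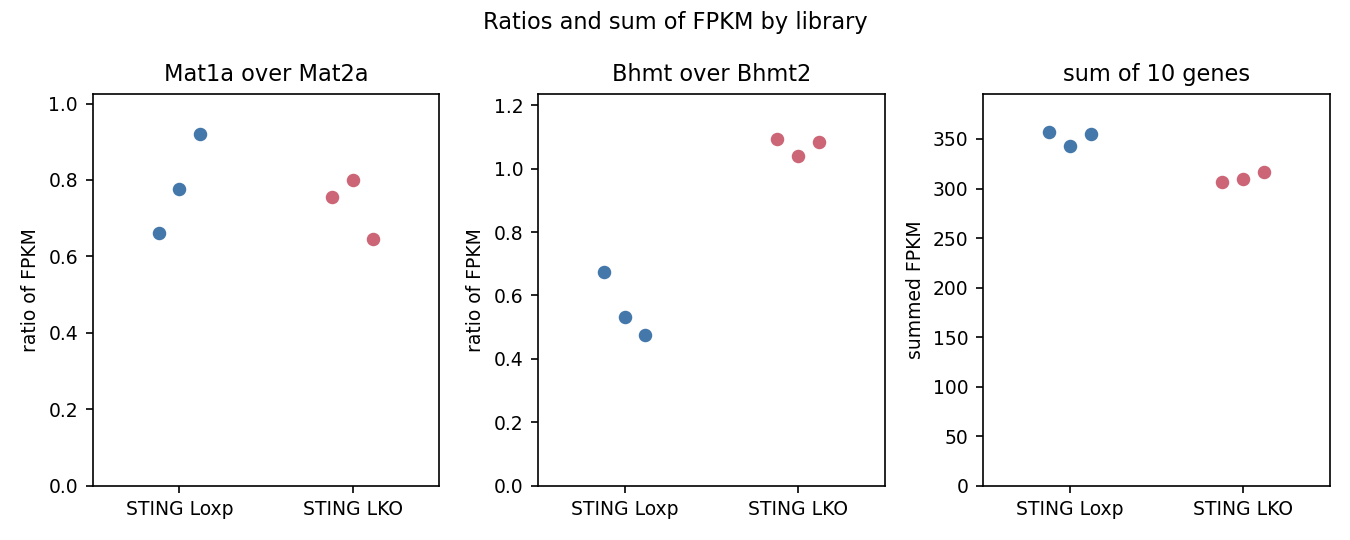
Ratio of *Mat1a* to *Mat2a* FPKM, ratio of *Bhmt* to *Bhmt2* FPKM and the summed FPKM of the 10 genes, one point per library, with STING Loxp in blue and STING LKO in red and axes from 0. The *Bhmt* ratio runs from 0.476 to 0.672 in STING Loxp and from 1.04 to 1.09 in STING LKO, while the *Mat1a* ratios of the groups overlap.

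Neither of the transsulfuration genes was called lower. *Cbs* (ENSMUSG00000024039, chromosome 17, 31827868 to 31856212) encodes cystathionine beta-synthase, which commits homocysteine to cysteine synthesis. It had 140.0, 155 and 168 CPM in STING Loxp against 127, 145 and 138 in STING LKO, with overlapping groups. The log2 fold change came to -0.17 with a standard error of 0.0828 (edgeR's quasi-likelihood test, adjusted p = 0.170). *Cth* (ENSMUSG00000028179, chromosome 3, 157599885 to 157630714) encodes cystathionine gamma-lyase, which releases cysteine. It had 281, 262 and 248 CPM in STING Loxp against 288, 309.9 and 311 in STING LKO. The groups did not overlap, but the first library of each stood close to the other group. Its log2 fold change came to 0.20 with a standard error of 0.0625 (edgeR's quasi-likelihood test, adjusted p = 0.0493), and 7 of 15 alternatives, among them the fit without STING Loxp replicate 2 or 3 or any one of the STING LKO libraries, placed the adjusted p above 0.05, at up to 0.155. Its transcript shared no 100-base window with another gene. *Gm43314*, which overlaps it, held 273 reads over the 6 libraries against 27552 for *Cth*.

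**Figure D3:**
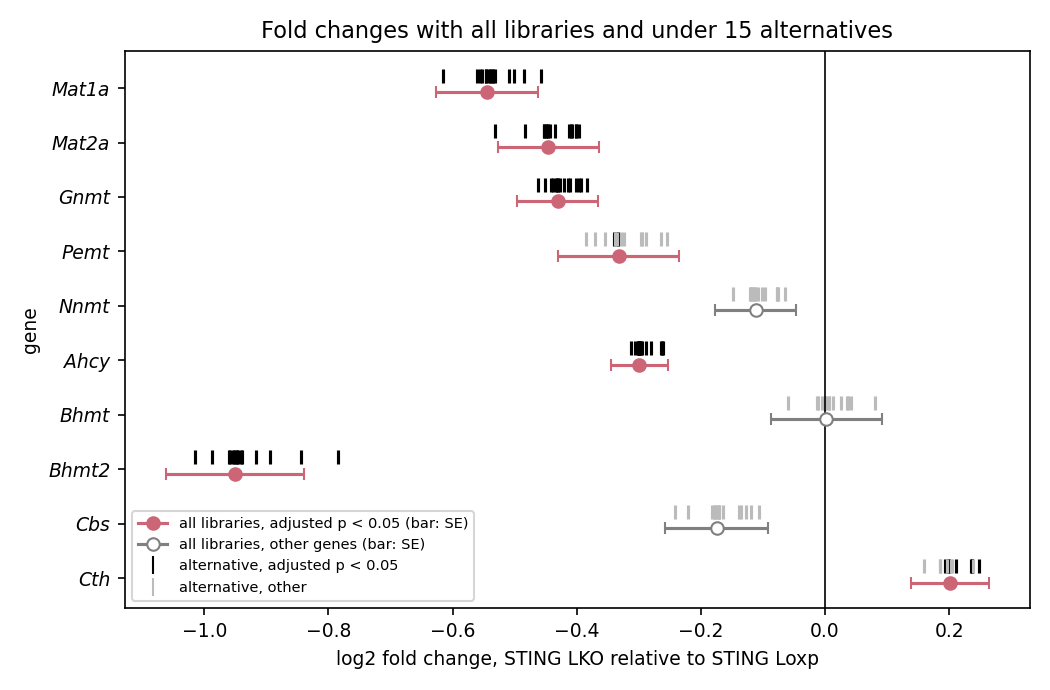
Log2 fold change of the 10 genes in STING LKO relative to STING Loxp (horizontal axis), with the standard error as a bar, filled red for an adjusted p under 0.05 and open grey for the others. Short ticks above each point give 15 alternative settings, black for an adjusted p under 0.05 and grey otherwise, and *Mat1a*, *Mat2a*, *Gnmt*, *Ahcy* and *Bhmt2* keep black ticks throughout.

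Compared per length in STING Loxp, *Ahcy* led with a mean FPKM of 103 ± 1.41, followed by *Cth* with 73.0 ± 5.12 and *Mat2a* with 41.4 ± 2.75 (SD, n = 3). *Gnmt* (36.7 ± 1.49), *Mat1a* (32.3 ± 3.50) and *Nnmt* (30.9 ± 0.815) came next, of which *Mat1a* and *Nnmt* lay within an SD of each other. *Cbs* had 12.4 ± 1.12, *Bhmt2* 8.74 ± 1.11 and *Pemt* 8.36 ± 0.480, and the last pair again differed by less than the spread. *Bhmt* was the lowest with 4.84 ± 0.546, at rank 6291 of the 14151 genes tested. This order rests on the fixed gene lengths behind the FPKM values. By mean CPM in STING Loxp, *Mat2a* led with 382 before *Ahcy* with 330, and *Bhmt2* was the lowest with 21.9. In STING LKO the order by FPKM changed. *Ahcy* (86.1 ± 0.838) and *Cth* (86.0 ± 3.71) were level, *Nnmt* (29.3 ± 1.37) stood above *Gnmt* (27.9 ± 1.16) and *Mat1a* (22.7 ± 0.303), and *Bhmt2* (4.63 ± 0.108) was the lowest. The summed FPKM of the 10 genes was 357, 343 and 355 in STING Loxp against 306, 310.1 and 316 in STING LKO. The groups did not overlap, and the means differed by -41.1 (p = 0.1 by exact two-sided permutation, again the lowest possible).

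Genes around the cycle were read from 8 hand-written pathway lists of 135 genes, of which 131 were tested. Of these, 27 were called lower and 25 higher, beside the 11.6% and 11.5% of all genes tested. Their median log2 fold change was -0.01, and all sizes given for these lists are log2 fold changes with adjusted p-values of edgeR's quasi-likelihood test. Of the 52 called genes, 38 kept an adjusted p under 0.05 in all 15 alternatives and 0 changed direction. Named are the 4 genes of each list with the smallest adjusted p and its most abundant gene by FPKM. Some further genes are named to complete a small count and were chosen after their values were seen. These are *Ftcd*, *Ggh*, *Gldc*, *Aldh1l2*, *Mthfd1*, *Mthfd1l*, *Slc44a1*, *Gamt*, *Coq5*, *Odc1*, *Amd1*, *Suox*, *Oplah*, *Tdo2*, *Aox3*, *Sirt1* and *Parp1*.

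The list of choline oxidation, betaine and sarcosine breakdown had the lowest median of the 8. Of its 9 genes, 6 were called lower and 0 higher by edgeR and by DESeq2, with a median log2 fold change of -0.39. At an unadjusted p under 0.05 edgeR placed 7 lower and 0 higher. *Chdh*, which encodes choline dehydrogenase, the first enzyme from choline to betaine, had 16.2, 13.3 and 13.6 CPM in STING Loxp against 6.18, 4.42 and 4.08 in STING LKO. Every STING LKO library had less than the lowest STING Loxp library by a wide margin, and the log2 fold change came to -1.56 with a standard error of 0.175 (edgeR's quasi-likelihood test, adjusted p = 6.22e-04). *Slc6a12*, a betaine transporter gene, fell by 0.74 as a log2 fold change (adjusted p = 4.45e-04), and *Slc6a13*, which encodes a transporter of taurine and GABA, fell by 0.80 (adjusted p = 8.46e-04). *Dmgdh*, which encodes the dehydrogenase for the dimethylglycine that the *Bhmt* enzyme leaves, fell by 0.39 (adjusted p = 0.00183). The choline transporter gene *Slc44a1* fell by 0.48.

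Folate is the other methyl source for homocysteine. Of 24 genes of its list tested, 4 were called lower and 6 higher, with a median of 0.14. *Slc19a1*, which encodes the reduced folate carrier, had 36.2, 34.8 and 38.1 CPM in STING Loxp against 61.6, 59.7 and 61.5 in STING LKO, a log2 difference of 0.74 with a standard error of 0.0668 (edgeR's quasi-likelihood test, adjusted p = 2.36e-04). *Mtrr*, which encodes the reductase that keeps methionine synthase active, rose by 0.66 as a log2 fold change (adjusted p = 8.95e-04). The log2 fold change of *Mtr*, the methionine synthase gene itself and named after its values were seen, was -0.11 (adjusted p = 0.367). Lower were *Aldh1l1* (-0.59, adjusted p = 5.61e-04), which encodes an enzyme that releases formate units as CO2, and *Amt* (-0.67, adjusted p = 0.00136), a subunit gene of the glycine cleavage system. *Ftcd* (-0.77), of histidine breakdown, and *Ggh* (-0.37), of folate turnover, were the other lower genes, and *Ggh* was not called under 11 of 15 alternatives. The other higher genes were *Gldc* (0.28, adjusted p = 0.00549), also of the glycine cleavage system, *Aldh1l2* (0.45, adjusted p = 0.0107), a relative of *Aldh1l1*, *Mthfd1* (0.35) and *Mthfd1l* (0.21). *Mthfd1l* was not called under 8 of 15 alternatives. *Gcsh*, the most abundant gene of the list with a mean FPKM of 51.2 over the 6 libraries, had a log2 fold change of 0.04 (adjusted p = 0.734).

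Of 16 genes tested for the steps after transsulfuration, 3 were called higher and 3 lower, with a median of -0.14. *Gclc*, which encodes the catalytic subunit of the rate-limiting enzyme of glutathione synthesis, had 476, 444 and 406 CPM in STING Loxp against 782, 835 and 858 in STING LKO. Its log2 fold change came to 0.90 with a standard error of 0.0681 (edgeR's quasi-likelihood test, adjusted p = 9.05e-05). *Gclm*, which encodes the modifier subunit, rose by 0.75 (adjusted p = 0.00123), and *Slc7a11*, which encodes a cystine importer, rose by 1.22 (adjusted p = 2.47e-04). *Cdo1*, which encodes the dioxygenase that starts cysteine breakdown towards taurine and sulfate, had 125, 130.3 and 122 CPM in STING Loxp against 74.4, 69.9 and 63.7 in STING LKO. Its log2 fold change came to -0.86 with a standard error of 0.0729 (edgeR's quasi-likelihood test, adjusted p = 1.79e-04). Also called lower were *Suox* (-0.67), the sulfite oxidase gene, and *Oplah* (-0.43), of which *Oplah* was not called under 6 of 15 alternatives.

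In the list of S-adenosylmethionine regulation, polyamine synthesis and methionine salvage, 5 of 16 genes tested were called higher and 1 lower, with a median of 0.13. *Srm*, which encodes spermidine synthase and was the most abundant gene of the list, rose by 0.50 as a log2 fold change (adjusted p = 0.00272 in edgeR's quasi-likelihood test). *Enoph1*, of methionine salvage, rose by 0.71 (adjusted p = 9.21e-04), and *Ahcyl1*, which encodes a relative of the *Ahcy* enzyme, rose by 0.40 (adjusted p = 0.00262). *Odc1* (0.35) and *Amd1* (0.27), which encode decarboxylases of polyamine synthesis, were the other higher genes, not called under 1 and 5 of 15 alternatives. Without STING LKO replicate 2, 3 genes of this list were called higher. *Adi1*, another salvage gene, fell by 0.38 (adjusted p = 0.00335). Of the other small-molecule methyltransferases, 5 of 13 genes tested were called lower and 1 higher, with a median of -0.14. The largest decrease was that of *Hnmt*, the histamine methyltransferase gene, with a log2 fold change of -1.11 (adjusted p = 0.00787) at a mean of 4.31 CPM in STING Loxp. *Tmt1a* (-0.60), *As3mt* (-0.34), *Tpmt* (-0.36) and *Gamt* (-0.67) were also called lower and *Coq5* (0.26) higher. Among these, *Tpmt*, *Gamt*, *Coq5* and *As3mt* were not called under 12, 11, 7 and 2 of 15 alternatives. With STING Loxp replicate 3 or STING LKO replicate 2 left out, 2 genes of this list were called lower, and with STING LKO replicate 1 or 3 left out there were 3.

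The phosphatidylcholine list, which includes the CDP-choline route that runs beside *Pemt*, had 2 genes called higher and 1 lower of 13 tested, with a median of 0.02. *Chka*, which encodes choline kinase alpha, rose by 0.68 as a log2 fold change (adjusted p = 0.00124 in edgeR's quasi-likelihood test) and *Pcyt2*, of the phosphatidylethanolamine branch, rose by 0.30 (adjusted p = 0.00908). *Pcyt1a*, of the CDP-choline route like *Chka* and named after its values were seen, had a log2 fold change of -0.57 and was not called (adjusted p = 0.0713). Each STING LKO library lay below every STING Loxp library for *Pcyt1a*. *Etnk2*, an ethanolamine kinase gene, fell by 0.76 (adjusted p = 0.00157), and *Lpcat3*, the most abundant gene of the list, had a log2 fold change of 0.02 (adjusted p = 0.853). Around nicotinamide, the substrate of the *Nnmt* enzyme, 7 of 20 genes tested were called lower and 1 higher, with a median of -0.27. *Acmsd*, which encodes a branch-point enzyme of tryptophan breakdown, fell by 1.43 (adjusted p = 3.28e-04). *Kynu*, of the same route, fell by 0.95 (adjusted p = 6.46e-04), and *Qprt*, which encodes the enzyme that turns quinolinate towards NAD+, fell by 0.80 (adjusted p = 4.36e-04). *Naprt*, which opens the route from nicotinic acid, fell by 0.81 (adjusted p = 2.92e-04), and *Parp1*, which encodes an enzyme that consumes NAD+, was the higher one (0.36). Also called lower were *Tdo2* (-0.94), *Aox3* (-1.37) and *Sirt1* (-0.47), of which *Sirt1* was not called under 7 of 15 alternatives. *Nampt*, whose enzyme uses nicotinamide itself and which was named after its values were seen, had a log2 fold change of 0.13 (adjusted p = 0.403). That of *Nadk*, the most abundant gene of this list, was -0.12 (adjusted p = 0.243).

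Methyltransferases of DNA, RNA and protein, which draw on the same S-adenosylmethionine, showed 7 of 20 genes called higher and 0 lower, with a median of 0.14. At an unadjusted p under 0.05 edgeR placed 8 higher and 0 lower, and DESeq2 called 7 and 0. Without STING LKO replicate 2 the count of higher genes was 4, and without STING LKO replicate 3 it was 6 with 1 lower. The 3 higher genes not called without replicate 2, chosen for naming after their values were seen, were *Trmt1* (0.35), *Dot1l* (0.26) and *Suv39h1* (0.64), which encode methyltransferases of tRNA and of histones and were not called under 6, 5 and 2 of 15 alternatives. In edgeR's quasi-likelihood test *Carm1*, a protein arginine methyltransferase gene, rose by 0.54 as a log2 fold change (adjusted p = 0.00183) and *Dnmt1*, the maintenance DNA methyltransferase gene, rose by 0.44 (adjusted p = 0.00240). *Nsun2*, an RNA methyltransferase gene and the most abundant of the list, rose by 0.28 (adjusted p = 0.00332), and *Prmt5*, another arginine methyltransferase gene, rose by 0.42 (adjusted p = 0.00804).

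**Figure D4:**
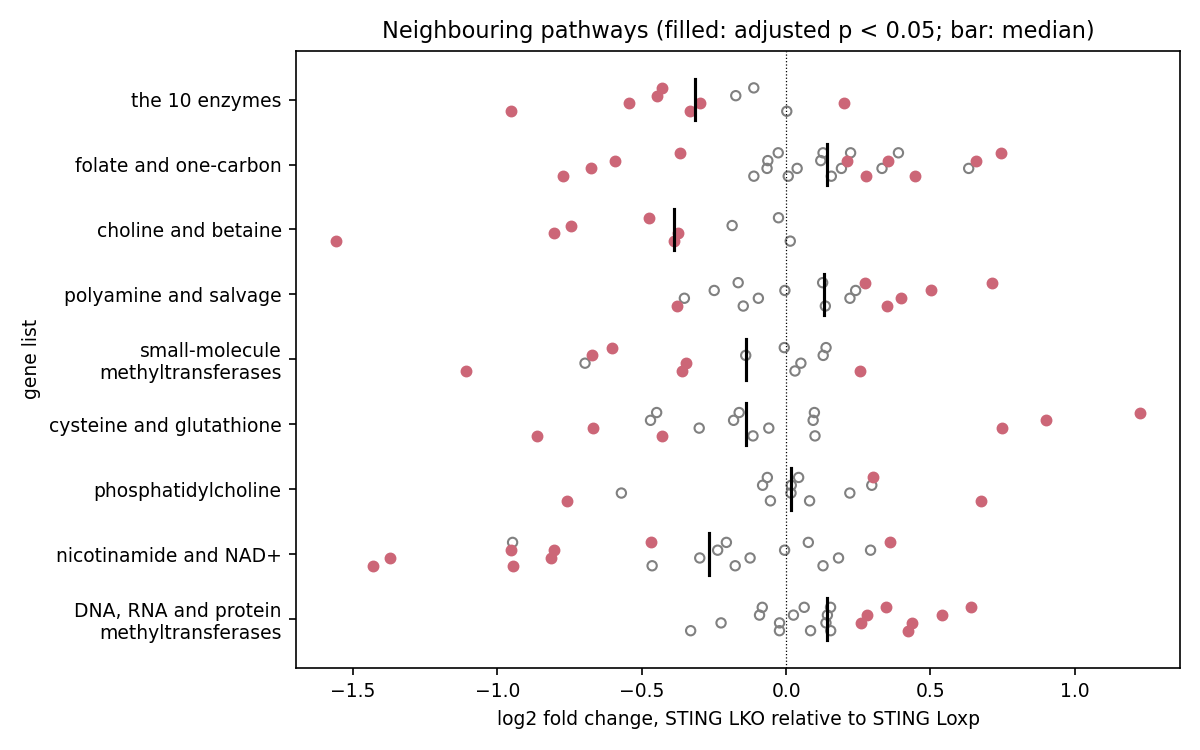
Log2 fold change in STING LKO relative to STING Loxp (horizontal axis) of each tested gene of the 10 enzymes and of the 8 neighbouring gene lists (rows), filled for an adjusted p under 0.05, with the median as a black bar; vertical offsets only separate points. The choline and betaine list has the lowest median, -0.39, and in the list of DNA, RNA and protein methyltransferases every filled point lies above 0.

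Markers of hepatocytes moved in the same direction as most of the 10 genes. Of 19 hepatocyte markers tested, 14 were called lower and 0 higher by edgeR (1 higher at an unadjusted p under 0.05 and by DESeq2), with a median log2 fold change of -0.45, and this count was 14 without any one of the 6 libraries. Their summed level was 40492 to 45130 CPM in the STING Loxp libraries and 30085 to 31560 in the STING LKO libraries. Among the 3 most abundant, *Hpx*, the hemopexin gene, fell by 1.33 and *Alb* by 0.27 as log2 fold changes (adjusted p = 4.2e-05 and 0.00319 in edgeR's quasi-likelihood test), while that of *Apoa1*, an apolipoprotein gene, was -0.09 (adjusted p = 0.232). Over all genes tested, 11.6% were called lower and 11.5% higher, which are the shares to set beside the counts of each marker list. Markers of other liver cells summed to far lower levels than those of hepatocytes. The 15 macrophage markers summed to 249.7 to 263 CPM in STING Loxp and 189 to 211 in STING LKO, with 3 of 14 tested called lower (*Cd68*, *Mpeg1* and *Itgam*). Within this sum *Cd68* alone had means of 78.7 CPM in STING Loxp and 43.1 in STING LKO. Of the 14 tested, 10 had negative log2 fold changes and 4 positive ones, with a median of -0.16. The positive ones, none of them called, were *Clec4f* (0.12), *Marco* (0.05), *Vsig4* (0.20) and *Lyz2* (0.18). For 14 endothelial markers the sums were 238 to 282 and 227 to 242 CPM, with 1 of 12 tested called lower (*Stab2*; 3 without STING Loxp replicate 2), and for 14 stellate cell markers 111 to 124 and 115 to 124 CPM, with 0 of 12 called (2 at an unadjusted p under 0.05 in edgeR, and 0 by DESeq2). The 10 cholangiocyte markers summed to 292 to 351 and 153 to 181 CPM, with 3 of 5 tested called lower (*Sox9*, *Spp1* and *Cldn4*) and 1 higher (*Krt19*), and *Sctr* at 0 reads in every library. All 12 lymphocyte markers had 0 reads in every library, and the 10 neutrophil markers had 54 reads in total. The called markers of these lists and the macrophage markers with positive changes were named after their values were seen. The part of these marker levels in the changes of the 10 genes was not tested.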

How the data were processed

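Read counts and FPKM values per gene were taken from the table that the authors deposited for 6 libraries, 3 per genotype, grouped by the sample labels. The deposited counts are whole numbers without normalization, and the deposited FPKM values divide them by 1 fixed gene length and by the library's total, which held within 0.00159% on 10819 genes. For *Mat2a* this length exceeds the gene's span on the chromosome, so levels per length may not follow transcript lengths. The submitters' processing notes name fastp, HISAT2, StringTie, edgeR and GRCm39. The annotation release, strand setting and versions are not given in the sources used here. Counts were filtered with filterByExpr (minimum count 10) and scaled by TMM in edgeR 4.0.16 (R 4.3.3), whose quasi-likelihood test, two-sided, compared the groups with Benjamini-Hochberg adjustment over 14151 genes. CPM is the count per 1000000 reads of the TMM-normalized library size. The study's methods name edgeR and no specific test. Fits were tested on simulated data. Pairs of replicates exceeded counting noise (chi-square over degrees of freedom, 7.20 to 15.4). Exact permutation tests compared 3 libraries with 3. Alternatives were DESeq2 1.42.0, RLE, upper-quartile and no factors, other count filters, a replicate block, limma-trend (limma 3.58.1) on log2(FPKM + 1) and log2(FPKM + 0.1), and each library left out. The alternatives for single pathway genes, for each pathway list and for markers were chosen after seeing the data. The 10 genes and the gene lists were chosen with earlier results of these data known. Named are the 10 genes, up to 4 called genes of each pathway list with the smallest adjusted p, its most abundant gene by FPKM, *Sting1* and abundant markers. A few genes that this rule covers are not reported here. Shared transcript windows were counted in GENCODE M21. Figures were drawn with matplotlib 3.10.9.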

Additional observations from a re-analysis of the deposited data

How the results depend on the processing

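The count of 6 lower genes stayed within 1.5 times under every alternative, and *Mat1a*, *Mat2a*, *Gnmt*, *Ahcy* and *Bhmt2* were called lower under all 15. *Pemt* kept its call under 3 of the 15 and *Cth* under 8. The count of higher genes was 0 when all genes with 1 count or more were tested and with the replicate block, and ran from 0 to 1 with 1 library left out. By the study's criteria the count of lower genes ran from 0 to 1 in those fits. The direction of *Bhmt*, which was not called, turned with upper-quartile factors (-0.0049), with at least 10 counts in every library (-0.00012) and without single libraries (from -0.0591 to 0.0813). The difference in the log2 ratio of *Mat1a* to *Mat2a* ran from -0.208 to 0.0302 with 1 library left out. The summed level fell by 227 in CPM, a different scale from FPKM. The counts of lower and higher pathway genes ran from 21 to 28 and from 18 to 27 over all alternatives, and DESeq2 and limma called 3 of the small-molecule methyltransferases lower in place of 5. Over all genes, leaving out 1 library lowered the counts called from 1641 lower and 1633 higher to between 1052 and 1515 and between 922 and 1510. Deviations of same-numbered libraries of the groups correlated at 0.120, 0.083 and 0.013, and those of differently numbered libraries at -0.131 to 0.046. With 3 libraries per group, such weak values cannot decide whether the replicate numbers pair the libraries. The replicate block left *Pemt* and *Cth* uncalled (adjusted p = 0.0517 and 0.0693 in edgeR's quasi-likelihood test) and changed no call of the other 8 genes. With 3 libraries per group, an exact test of a single value cannot go below p = 0.1.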
